A study of Mus musculus with 2 samples.

Results

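Co-inhibitory receptors of T cells other than Ctla4, with related surface molecules, were examined as 9 genes: Pdcd1, Lag3, Tigit, Havcr2, Btla, Cd160, Cd200, Cd226 and Cd96. Cd226 encodes an activating receptor and Cd200 the ligand of an inhibitory receptor, so both are related molecules and not co-inhibitory receptors themselves. They were 9 of 21938 protein-coding genes, and 35 of the 26090 accessible regions of the series (0.134%) belonged to them. A region was assigned to a gene when it lay in the gene body, or when that gene had the nearest protein-coding transcription start site (TSS) within 100 kb of the region's strongest summit. Accessible chromatin was mapped by ATAC-seq, in which a transposase inserts sequencing adapters into open DNA, in regulatory T cells labelled as activated, from male Foxp3CreERT2 x Rosa26YFP mice aged 4 months. In this strain a tamoxifen-inducible Cre recombinase is driven from the Foxp3 locus and YFP from Rosa26. The source label traces these primary cells to a bone marrow haematopoietic cell, and the sources used here do not say how they were activated. The 2 libraries were technical replicates 1 and 2 of biological replicate 1, and there was no control group. All peak lists pool both libraries, and therefore neither a value per library nor an SD between animals can be given.

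Co-inhibitory receptors are surface proteins that dampen T cell signalling when they meet a ligand on another cell, and most are induced by activation. PD-1, the product of Pdcd1, recruits the phosphatase SHP-2 (Ptpn11) through its cytoplasmic tail and is bound by Cd274 and Pdcd1lg2. On regulatory T cells several of these receptors are known to be present at higher levels than on resting conventional T cells. ATAC-seq shows where their DNA is accessible, not how much RNA or protein is made. In a bulk sample, the share of cells with an open site and the openness of the site per cell cannot be told apart.

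Sequences are shown for the 8 regions to which the results below return: the strongest region of Pdcd1, Cd160, Havcr2 and Cd96, and 4 other regions of Pdcd1, Tigit and Lag3 that hold a match. Each is the 121 bp centred on the strongest summit, read 5′ to 3′ on the transcribed strand of the gene from GRCm38 (mm10), with coordinates beside it. Havcr2 lies on the plus strand and the other 5 genes of this set on the minus strand. Capitals mark the letters of a searched motif on either strand: the longer CTCF core in the sequences of Pdcd1 26.7 kb upstream and Cd160, ETS (GGAAGT) and RUNX (TGTGGT) in those of Pdcd1 39.4 kb upstream and Havcr2, RUNX in those of the Cd96 and Tigit promoters, and AP-1 (TGANTCA) in those of Tigit intron 3 and Lag3. Searched letters left unmarked are IRF (GAAANNGAA) in the Lag3 sequence and STAT (TTCNNNGAA) in that of Tigit intron 3. A match describes the letters only and is no measure of binding.
Pdcd1 26.7 kb upstream, chr1:94079229-94079349: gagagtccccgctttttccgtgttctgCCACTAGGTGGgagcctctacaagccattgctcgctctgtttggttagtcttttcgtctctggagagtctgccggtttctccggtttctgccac
Cd160 intron 1, chr3:96812825-96812945: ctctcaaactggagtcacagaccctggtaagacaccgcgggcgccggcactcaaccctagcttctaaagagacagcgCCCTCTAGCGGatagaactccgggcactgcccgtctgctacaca
Pdcd1 39.4 kb upstream, chr1:94091915-94092035: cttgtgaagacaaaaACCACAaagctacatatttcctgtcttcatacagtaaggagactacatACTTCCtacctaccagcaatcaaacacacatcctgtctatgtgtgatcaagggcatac
Havcr2 promoter, chr11:46454815-46454935: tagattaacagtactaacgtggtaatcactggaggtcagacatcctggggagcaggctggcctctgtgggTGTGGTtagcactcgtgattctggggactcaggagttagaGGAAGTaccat
Cd96 promoter, chr16:46120166-46120286: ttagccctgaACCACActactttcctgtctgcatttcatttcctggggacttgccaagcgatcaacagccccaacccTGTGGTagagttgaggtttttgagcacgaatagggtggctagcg
Tigit promoter, chr16:43664216-43664336: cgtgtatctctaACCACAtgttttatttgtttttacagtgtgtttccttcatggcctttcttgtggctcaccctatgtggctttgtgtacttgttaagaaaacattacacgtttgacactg
Tigit intron 3, chr16:43655363-43655483: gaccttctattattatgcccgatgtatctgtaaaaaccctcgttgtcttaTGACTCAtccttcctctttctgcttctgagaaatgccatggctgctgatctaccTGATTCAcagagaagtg
Lag3 intron 5, chr6:124907885-124908005: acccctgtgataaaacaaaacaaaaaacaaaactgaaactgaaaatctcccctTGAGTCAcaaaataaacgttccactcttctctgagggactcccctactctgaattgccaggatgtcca

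By signal value, the strongest accessible region of 7 of the 9 genes was distal, that is, over 1000 bp from every protein-coding TSS. The exceptions were Havcr2 and Cd96. No such share over all genes was at hand, so whether 7 of 9 is unusual could not be told. The strongest of all 35 lay 26.7 kb upstream of Pdcd1, with a signal value of 25.3. All 9 genes had at least 1 region in the list thresholded at an irreproducible discovery rate (IDR) of 0.05, against 58.2% of all protein-coding genes. All 9 also had a distal region, against 29.2% of all genes. A promoter region, one that overlapped the 1000 bp on either side of a TSS, was present at 7 genes, against 49.1% of all genes. Lag3 and Cd160 lacked one. In the more permissive pseudoreplicated list 9 of 9 had one, against 55.7% of all genes.

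**Figure D1:**
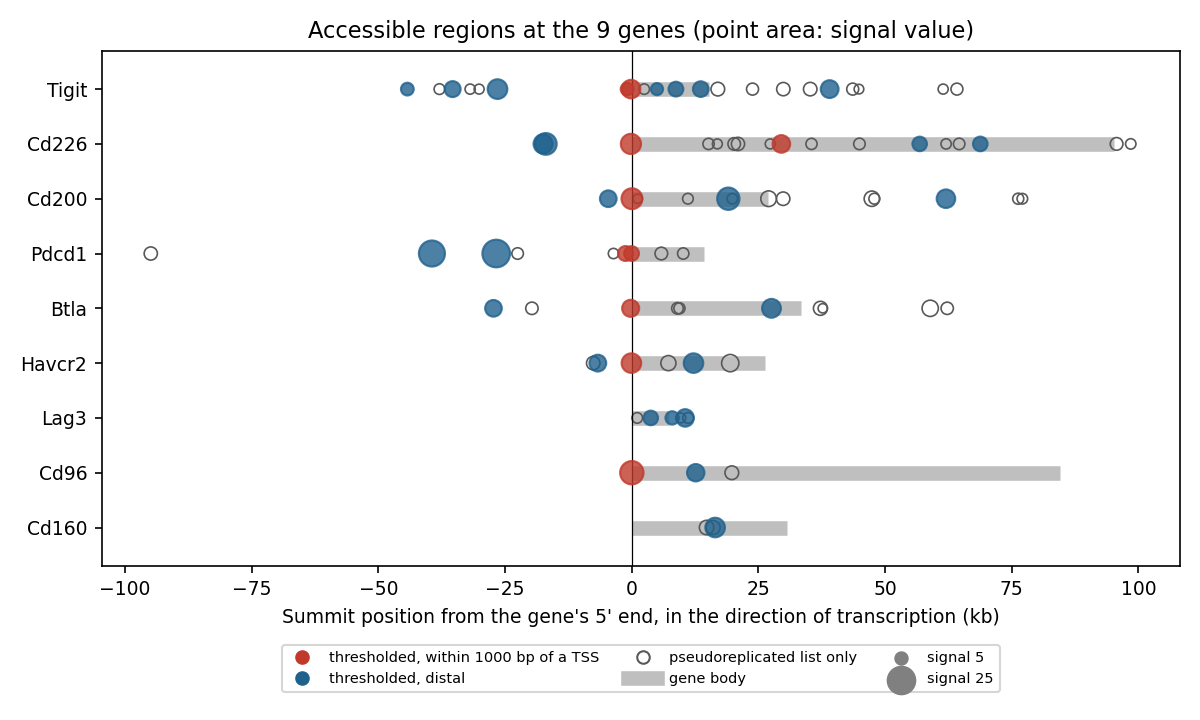
Position of each region's strongest summit from the 5′ end of its gene (x axis, kb, positive in the direction of transcription), 1 row per gene, with the gene body as a grey bar and point area proportional to the signal value. Red points are thresholded promoter regions, blue points thresholded distal regions and open circles regions of the pseudoreplicated list alone. The 2 largest points lie upstream of Pdcd1.

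The number of regions per gene had a median of 3 (range 1 to 9), against a median of 1 over all protein-coding genes. Of the 9 genes, 8 had more than that. Tigit had 9, Cd226 had 6, Pdcd1 and Cd200 had 4 each, Lag3, Havcr2 and Btla had 3 each, Cd96 had 2 and Cd160 had 1. The territory of a gene, the stretch within 100 kb that lies closer to its TSSs than to those of any other gene, was also larger: a median of 106.7 kb for the 9 genes and 45.0 kb for all genes. The part of territory size in the count was not tested. Among genes of similar territory (within 1.25-fold), 2.87% had at least as many regions as Tigit and 3.07% at least as many as Lag3. That share was 9.0% for Cd226, 10.6% for Havcr2, 15.1% for Cd200, 15.8% for Pdcd1, 24.97% for Btla, 35.7% for Cd96 and 60.8% for Cd160. These shares were smallest for Tigit and Lag3, and Lag3 had the smallest territory of the 9 (14.1 kb).

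**Figure D2:**
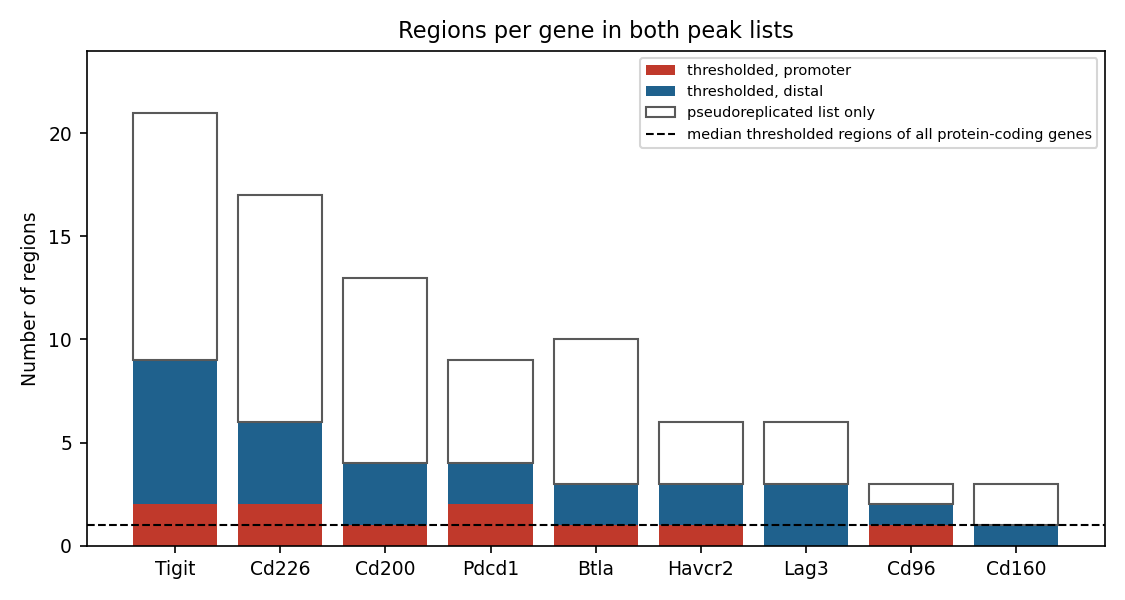
Number of regions per gene (y axis), split into thresholded promoter (red), thresholded distal (blue) and pseudoreplicated-only regions (white). The dashed line is the median of 1 thresholded region over all protein-coding genes, which all genes but Cd160 exceed.

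Pdcd1 (ENSMUSG00000026285.7, chr1:94038305-94052553, minus strand) had its open chromatin upstream, with no thresholded region inside the gene body past the promoter. The region at chr1:94078960-94079442, 26.7 kb upstream, reached a signal of 25.3 and a caller −log10 p of 247.5, and its signal exceeded that of 98.0% of all distal regions. Its ranking value was 109 in the first and 143 in the second of the 2 inputs compared for the IDR. The region at chr1:94091716-94092168, 39.4 kb upstream, had a signal of 22.5, above 94.5% of distal regions, with inputs of 63.6 and 48.9. Both distal regions thus had a higher signal than every other member region, and strength here means signal throughout. The caller's p ordered the regions differently. The region 39.4 kb upstream had a −log10 p of 111.2, below that of the Cd96 promoter (245.7) and of several other member regions.

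The start of Pdcd1 had low signal values. A region over the TSS (chr1:94052145-94052722, summit 22 bp upstream) had a signal of 7.26, and a separate one (chr1:94053467-94053917, summit 1221 bp upstream) had 7.43. Their signals exceeded 8.73% and 9.29% of all promoter regions. Their caller −log10 p values of 60.6 and 58.2 were nevertheless above that of the Havcr2 promoter region (36.2), whose signal was 12.7. Elements upstream of mouse Pdcd1 that bind NFATc1 and other factors are known from earlier work, and whether these regions are the same was not tested. The pseudoreplicated list added 5 weaker regions, among them 1 at 22.5 kb upstream with a signal of 4.36, which lay nearest to the strongest one. All 4 thresholded regions were kept at a stricter global IDR of 0.01, where 76.2% of all regions were kept.

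Lag3 (ENSMUSG00000030124.2, chr6:124904361-124911705, minus strand) encodes a CD4-related receptor that binds MHC class II. Its 3 thresholded regions lay inside or past the gene and none at its start. The region in intron 5 (chr6:124907796-124908270) had a signal of 7.03 with inputs of 17.3 and 19.4, and it holds the AP-1 letters shown above. The region just past the 3′ end (chr6:124903589-124904079) had a signal of 5.94 with inputs of 22.6 and 22.7. The region farther downstream (chr6:124900921-124901565) was the strongest of the gene, with a signal of 10.2 and inputs of 43.0 and 44.4.

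The last of these lay 8891 bp from the nearest Lag3 TSS and 12939 bp from the TSS of Cd4, the neighbouring gene that encodes the CD4 co-receptor. Its assignment to Lag3 rests on that difference in distance alone. At the start of Lag3 the pseudoreplicated list held 1 region (chr6:124910492-124910735) with a signal of 3.68 and a global IDR of 0.388, far outside the threshold of 0.05. At Cd160, by contrast, a region at chr3:96814246-96814763 with a signal of 6.85 lay just outside it, at 0.0548. The member region just inside was 1 upstream of Btla, at 0.0470.

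Havcr2 (ENSMUSG00000020399.14, chr11:46454935-46481255, plus strand) encodes TIM-3, a receptor for galectin-9 and Ceacam1. Its promoter region (chr11:46454640-46455068, summit 60 bp upstream) had a signal of 12.7 with inputs of 15.1 and 22.8. An intron 4 region (chr11:46466857-46467321) was about as strong, with a signal of 12.6 and inputs of 17.8 and 15.3. The upstream region, 6688 bp from the 5′ end, had a signal of 9.38. At an IDR of 0.01 only the upstream region was kept, so Havcr2 was the gene that lost its promoter region at that threshold.

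Tigit, Cd96 and Cd226 encode receptors that share ligands of the nectin family, chiefly Pvr. Tigit and Cd96 are counted among the inhibitory receptors, while Cd226 (DNAM-1) is their activating counterpart. The 3 genes differed in where their strongest region lay: at the promoter for Cd96, and upstream for Tigit and Cd226.

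Tigit (ENSMUSG00000071552.5, chr16:43648867-43664146, minus strand) had the most regions of the 9 genes, with 2 at the promoter, 3 in intron 3, 3 upstream and 1 downstream. Its strongest region (chr16:43690076-43690791, 26.5 kb upstream) had a signal of 12.8 with inputs of 64.9 and 77.9. The promoter region (chr16:43664008-43664641, summit 130 bp upstream) had a signal of 11.5 with inputs of 90.2 and 61.3. The other promoter region, 911 bp upstream, had a signal of only 5.42.

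The 3 Tigit regions of intron 3 increased in signal along the gene, with 4.91 at 4991 bp, 7.24 at 8723 bp and 8.11 at 13621 bp from the 5′ end. All 3 were weaker than the lower quartile of distal regions (9.45). The upstream pair at 35.3 and 44.3 kb had signals of 8.46 and 5.41 and lay within Gm49735, an annotated lincRNA gene on the same strand. The downstream region (39.1 kb, signal 10.5) lay within the body of Zbtb20, a zinc finger repressor gene whose nearest TSS was 114776 bp away. Of the 9 Tigit regions, 4 were kept at an IDR of 0.01.

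Cd96 (ENSMUSG00000022657.9, chr16:46035657-46120251, minus strand) had the strongest promoter of the 9 genes. That region (chr16:46119752-46120588) had a signal of 18.1, a caller −log10 p of 245.7 and inputs of 98.1 and 151. It was the only one of 10 member promoter regions above the median of all promoter regions (15.2). The only other region of Cd96 lay in intron 3, 12.6 kb from the 5′ end, with a signal of 10.03. The gene is 84.6 kb long, so most of its body held no thresholded region.

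Cd226 (ENSMUSG00000034028.16, chr18:89176967-89272229, plus strand) had a pair of close distal regions 17.5 and 16.9 kb upstream, with signals of 12.2 and 15.6. The promoter region (summit 155 bp upstream) had a signal of 13.5 with inputs of 21.9 and 33.0. A second promoter region in intron 2 (chr18:89205928-89206702) lay 396 bp from an internal TSS and had a signal of 10.3 with inputs of 77.4 and 64.5. The remaining pair lay in intron 4 with signals of 6.98 and 7.09, the weakest of the gene. Both upstream regions held AP-1 letters near the summit.

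Btla and Cd160 encode immunoglobulin-family receptors that both bind Tnfrsf14 (HVEM). Btla (ENSMUSG00000052013.15, chr16:45224315-45257670, plus strand) had a broad promoter region (chr16:45223630-45225044), which at 1415 bp and 5 summits was the widest of the 35. Its signal was 9.64 with inputs of 53.3 and 36.9. The strongest Btla region (chr16:45251575-45252697, 27.6 kb from the 5′ end) lay in the gene body past the last exon of the longest coding transcript, 1527 bp from an internal TSS, with a signal of 11.8. Its inputs of 54.9 and 30.9 had the largest ratio of any member region (1.78). The region 27.3 kb upstream of Btla had a signal of 9.21 and the highest IDR of the 35.

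Cd160 (ENSMUSG00000038304.14, chr3:96798763-96829351, minus strand) had 1 thresholded region, the fewest of the 9 genes. It lay in intron 1 (chr3:96812743-96813002, 260 bp wide), 1636 bp from the nearer of its 2 TSSs, with a signal of 12.7 and inputs of 31.1 and 24.5. That signal exceeded 50.2% of all distal regions. With the promoter window widened to 2500 bp on either side, both Lag3 and Cd160 counted as having a promoter region.

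Cd200 (ENSMUSG00000022661.14, chr16:45382135-45409053, minus strand) encodes the surface ligand of the inhibitory receptor Cd200r1. Its promoter region (chr16:45408410-45409356) had 4 summits and a signal of 14.4, with inputs of 79.6 and 51.7. The intron 5 region (chr16:45389786-45390330) was stronger, with a signal of 16.5, above 74.98% of distal regions, and inputs of 61.1 and 36.4. The upstream region at 4624 bp had a signal of 9.22, lay within the gene Gm609, and was the member region with the most repeat-masked sequence (59.9% of its bases).

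Btla and Cd200 are neighbours, 124 kb apart with no protein-coding gene between them. The gap held 1 thresholded region (chr16:45346234-45347290), with 3 summits, a signal of 11.4 and inputs of 27.2 and 26.6. It lay 53271 bp from the nearest Cd200 TSS and 96670 bp from the nearest Btla TSS. Of all 35, it was the farthest from the nearest TSS of its own gene. These genes, with Tigit and Cd96, place 4 of the 9 members within 2.47 Mb of chromosome 16. From Tigit to Btla the gap was 1560 kb with 21 protein-coding genes and 36 regions, and from Cd200 to Cd96 it was 627 kb with 10 genes and 11 regions.

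Member regions had lower signal values than regions at large by their medians, although Pdcd1, Cd200, Cd226 and Cd96 each had a region above the median of all regions. The median signal was 10.2 over the 35 member regions and 13.6 over all regions, and the median width was 509 bp in members and 637 bp over all. Promoter regions of the members had a median signal of 10.9 (n = 10), against 15.2 over all 11374 promoter regions. Of the 10, 5 were below the lower quartile of that class (10.8) and 0 above the upper quartile (19.7). Distal regions of the members had a median signal of 10.03 (n = 25), against 12.7 over all 14716 distal regions. Of the 25, 12 were below the lower quartile (9.45) and 2, both of Pdcd1, were above the upper quartile (16.5). These are descriptions within 1 pooled list, with no test.

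**Figure D3:**
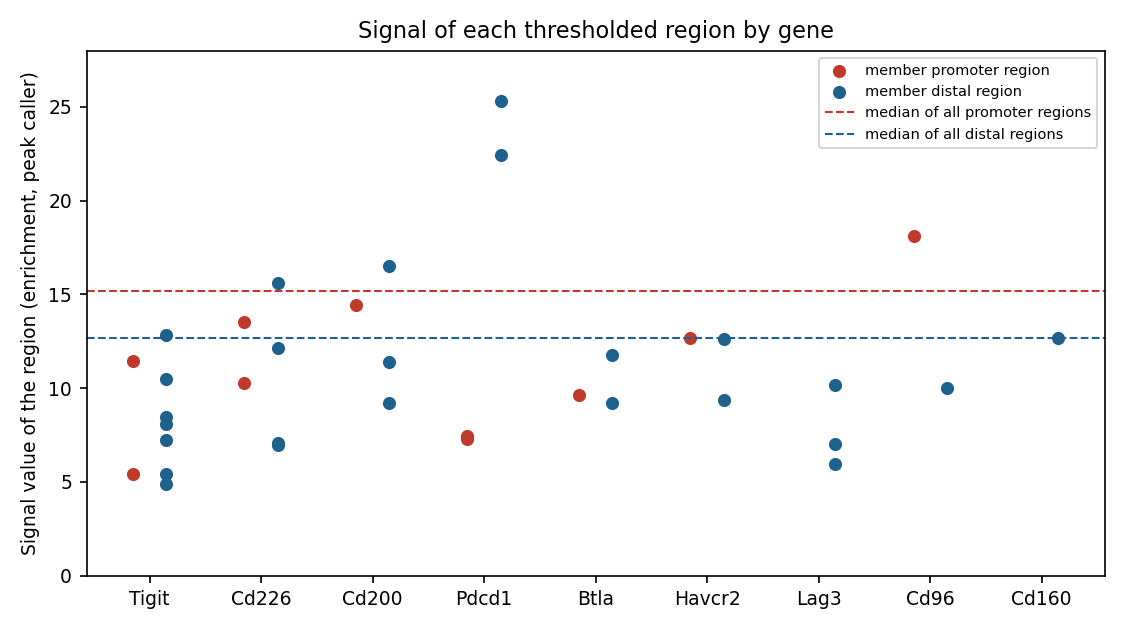
Signal value of each thresholded region (y axis, the peak caller's enrichment) by gene, promoter regions in red and distal regions in blue. Dashed lines give the medians of all promoter regions (15.2) and all distal regions (12.7); the 2 distal Pdcd1 regions at 22.5 and 25.3 and the Cd96 promoter at 18.1 stand highest.

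The members' regions were more often distal than regions at large: 71.4% of the 35 were distal, against 56.4% of all regions. Of the 35, 10 were promoter regions, 11 lay elsewhere in the gene body, 10 upstream and 4 downstream. The median distance of a distal region to the TSS was 13.6 kb in members and 13.8 kb over all distal regions within 100 kb. Regions over 20 kb from the nearest TSS numbered 10, and 4 overlapped another annotated gene. More than 1 summit was present in 18 of the 35.

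The starts of 8 of the 9 genes were poorer in CpG than the median gene, a property that the choice of members did not use. Cd200 was the exception. The ratio of observed to expected CpG from 250 bp before to 50 bp after the 5′ end had a median of 0.294 in the members and 0.525 over all genes. It was lowest in Cd226 (0.0640) and highest in Cd200 (0.545). Genes with a promoter region had a median ratio of 0.757, and those without one 0.252. Among the 11311 genes with a ratio no higher than that of Cd200, 23.4% had a promoter region, beside 7 of the 9 members. The strongest promoter region of a gene had a median signal of 12.7 over the 7 members with one, 15.6 over those of these 11311 genes with one and 16.6 over all genes with one. The members' median was thus the lowest of the 3.

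Short motif letters were sought within 100 bp of the strongest summit on both strands, for 16 motifs none of which contains another. Shares are given with Wilson 95% intervals, which cover counting error only, beside the share of all 26090 regions and of flanks centred 1000 bp from all summits. AP-1 letters (TGANTCA) were found in 6 of the 35 member regions (17.1%, interval 8.10% to 32.7%), against 9.39% of all regions and 5.44% of flanks. They lay at Tigit, Lag3, Btla and Cd226. Among distal member regions 5 of 25 held AP-1 letters (20%, interval 8.86% to 39.1%). The share of all distal regions, 13.6%, lay within that interval, so a distal difference could not be told. Among member promoter regions 1 of 10 held them, against 3.95% of all promoter regions. RUNX letters (TGTGGT) were found in 10 (28.6%, interval 16.3% to 45.1%), against 21.2% of all regions and 14.98% of flanks. By class, 5 of 10 member promoter regions held RUNX letters, at Tigit, Havcr2, Btla, Cd226 and Cd96, against 10.3% of all promoter regions. Of the 25 distal member regions, 5 held them (20%, interval 8.86% to 39.1%), against 29.5% of all distal regions. That background lay within the members' interval, so a distal difference could not be told. The promoter share rests on 10 regions only, and no interval was computed for it.

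ETS and KLF/SP letters were less frequent at the strongest summits of member regions than of regions at large. ETS letters (GGAAGT) were found in 5 of 35 (14.3%, interval 6.26% to 29.4%), against 29.9% of all regions and 12.2% of flanks. The share of all regions lay only narrowly above the members' interval. By class, 4 of 25 distal member regions held ETS letters (16%, interval 6.40% to 34.7%), against 32.0% of all distal regions, a share within that interval. Of the 10 promoter regions 1 held them, against 27.1% of all promoter regions. Over every summit the shares were 20.6% in members and 23.3% over all, and in the pseudoreplicated list 22.7% and 27.4%, so the size of the ETS difference depended on the summits counted. KLF/SP letters (GGGCGG) were in 2 of 35 (5.71%, interval 1.58% to 18.6%), against 31.1% of all regions. They were in 2 of 10 promoter regions, against 56.8% of all promoter regions. Of the 25 distal member regions 0 held them (upper Wilson bound 13.3%), against 11.3% of all distal regions. A distal difference in KLF/SP letters therefore could not be told. These letters hold CpG, and the part of the members' low CpG content in their rarity was not tested. ETS and RUNX letters occurred together in 3 member regions, the promoter and upstream region of Havcr2 and the region 39.4 kb upstream of Pdcd1, beside 6.68% of all regions, a share near that of the members. Of the 35, 18 held none of the ETS, RUNX and AP-1 letters, beside 51.1% of all regions.

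Several other motifs were near the level of all regions. NFAT letters (TGGAAA) were in 6 of 35 (17.1%), against 13.3% of all regions and 17.4% of flanks. E-box letters (CAGNTG) were in 12 (34.3%) against 40.3%, TCF letters (CTTTGA) in 5 (14.3%) against 13.0%, IRF letters (GAAANNGAA) in 4 (11.4%) against 7.97%, STAT letters (TTCNNNGAA) in 3 (8.57%) against 5.95%, GATA letters (AGATAA) in 3 (8.57%) against 7.23%, and NF-kB letters (GGGNNTTCC) in 2 (5.71%) against 6.41%. CRE (TGACGTCA), forkhead (TGTTTAC), T-box (AGGTGTG) and NR4A (AAAGGTCA) letters were found at the strongest summit of 0 member regions, against 2.11%, 3.09%, 4.45% and 0.912% of all regions. With 35 windows, a count of 0 has an upper Wilson bound of 9.89%, so these shares could not be told from those of all regions. Over every summit, T-box letters were at 9.52% in members, against 4.31% over all, and forkhead letters at 1.59%, against 2.74%. CRE and NR4A letters stayed at 0%.

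**Figure D4:**
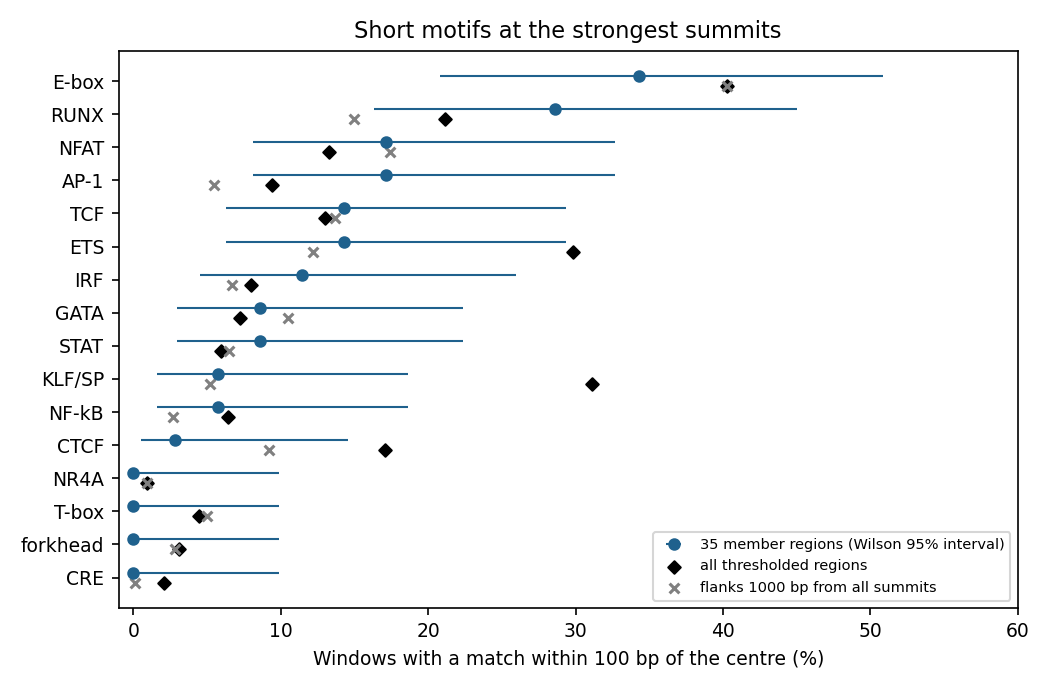
Share of windows with each motif's letters (x axis, percent): the 35 member regions as blue points with Wilson 95% intervals, all thresholded regions as diamonds and flanks as crosses. ETS, KLF/SP and CTCF are the motifs at which the diamond lies beyond the members' interval.

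CTCF, the factor that anchors chromatin loops, depended on the letters searched. The short letters (CCNNNAGGG) were in 1 of 35 (2.86%, interval 0.506% to 14.5%), against 17.1% of all regions. A longer core consensus, chosen after the sequences were seen, was in 4 of 35 (11.4%, interval 4.54% to 25.95%), against 8.31% of all regions and 1.03% of flanks. All 4 were distal: the region 26.7 kb upstream of Pdcd1, the one just past the 3′ end of Lag3, the one 27.3 kb upstream of Btla and the intron 1 region of Cd160. Of all distal regions, 11.3% held the longer core.

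Both inputs of the ranked list gave similar values at the strongest summits of the members. The files do not name these inputs, and whether they are the 2 libraries is not stated. All 35 regions were within 2-fold between inputs at the strongest summit, as were 98.2% of all regions. Over every summit of the members the share was lower than at their strongest summits, 82.5% of 63. No share over every summit of all regions was at hand, so the 98.2% is no background for it. The list was thresholded on the IDR of these same inputs, which favours similar values. The median ratio of the larger to the smaller was 1.27 in members (range 1.00 to 1.78) and 1.20 over all regions. All 35 were also in the pseudoreplicated list, which comes from the same reads and is no independent check. That list held 53 further member regions with a median signal of 4.36 (range 2.84 to 9.78), 48 of them distal and 5 at a promoter. At an IDR of 0.01, 23 of the 35 were kept, a smaller share than the 76.2% of all regions.

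**Figure D5:**
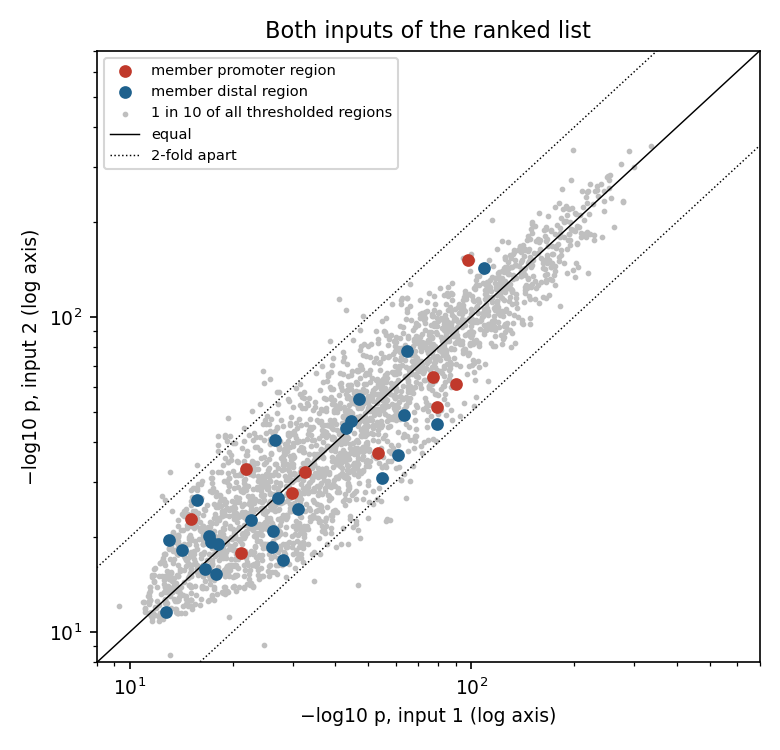
Ranking value (−log10 p) of each region in the second input (y axis) against the first (x axis), both on log axes, for member promoter regions (red), member distal regions (blue) and 1 in 10 of all thresholded regions (grey). All 35 member regions, each at its strongest summit, lie between the dotted lines of a 2-fold difference.

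Genes of the same pathway were described from lists of known partners. Of 15 ligands and binding partners, 9 had a region and 7 a promoter region, with a median of 1 region. These counts were near those of all protein-coding genes, of which 58.2% had a region and 49.1% a promoter region, with the same median of 1. Pdcd1lg2, a PD-1 ligand, had 5, all distal, Tnfrsf14 had 5, Hmgb1, a TIM-3 ligand, had 4, and Pvr had 3. Ceacam1 and Clec4g were among the 6 with none. All 14 signalling partners had a promoter region, with a median of 4 regions and the most at Fyn, a Src-family kinase (17), Inpp5d, which encodes the phosphatase SHIP-1 (6), and Itgb2, an integrin chain (6).

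Of 8 other inhibitory receptors, all had a region, 5 had a promoter region, and the median was 4. Ctla4 had 14, Cd5 had 8, Cd101 had 6 and Vsir, which encodes VISTA, had 5. Of 15 transcription factors known to act on such receptor genes, all had a region and 12 a promoter region, with a median of 6. Nfatc1 had 17, Tox had 14, and Nfatc2 and Irf4 had 9 each. The 9 genes had a median of 3 regions, between those of the binding partners and of the transcription factors, with no test of the difference. Territories differed as well. They ran from 39.3 kb (Nr4a1) to 401 kb (Tox) among the factors and from 21.2 kb (Nectin2) to 287 kb (Nectin3) among the binding partners. The part of territory size in these counts was not tested.

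The label of the cells was compared with marker genes, beside the 58.2% of all protein-coding genes with a region and the 49.1% with a promoter region. All 8 regulatory T cell markers, Foxp3 and Il2ra among them, and all 8 T cell markers had regions, with a promoter region at 7 of each. Of the markers of other cells, 1 of 2 for CD8 T cells, 1 of 5 for myeloid cells, 3 of 4 for NK cells and 2 of 3 for erythroid cells had a region. Promoter regions were present at 1 CD8 T cell marker, 0 myeloid markers, 0 NK cell markers and 2 erythroid markers. Cd8a, Csf1r, Lyz2 and Ncr1 had no region. Klrb1c had 8 regions, all distal, Klrd1, Eomes and Itgam had 1 distal region each, and Cd8b1, Gata1 and Klf1 had 1 promoter region each. Among B cell markers, Cd79a and Cd79b had 1 region each and Pax5 had 2, of which 1 was at a promoter, while Ms4a1 had none. Markers of other cells were thus not all closed. Read depth is unknown, and the part of other cells in the members' regions was not tested.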

How the data were processed

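The 2 libraries of activated regulatory T cells form 1 group. The 3 deposited peak lists (pseudoreplicated, IDR ranked and IDR thresholded, build mm10) derive from 1 alignment, per the README deposited with each library. The sources used here state no peak caller, aligner, version, read filter or depth. The authors' signal value is the caller's enrichment per peak. The deposited −log10 columns hold its p and q values and, in the ranked list, the IDR (local and global) and each input's ranking value. The deposited score runs to 1000 and, in the thresholded list, follows from the IDR, with 540 for an IDR of 0.05. All are the authors' per-peak values, used within a list.

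Thresholded rows (48668) sharing at least 1 bp were joined, which gave 26090 regions, each with the signal and summit of its strongest row. The same was done for the pseudoreplicated list (77257 rows, 50037 regions). Genes and every transcript start came from GENCODE M21, and sequences from GRCm38.p6. Gene body overlap added no region to the nearest-TSS assignment. Introns were counted in the longest coding transcript. The region and motif counting was tested on simulated data.

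The members and lists were chosen with earlier results of these data known. Named were all 9 members with their regions, genes whose bodies or territories they touch, and of each pathway list the genes richest in regions (4 at most) and some without any (2 at most). Of the sequences, 4 were chosen after their matches were seen. A further marker is not reported here. No test was possible with 1 group and pooled lists. Alternatives were the other lists, unmerged summits, assignment distances, promoter windows, 1 TSS per gene, a 50% overlap and other motif windows, summits and letters. Python 3.11.15, numpy 2.4.6, scipy 1.17.1, pysam 0.24.0 and matplotlib 3.10.9 were used.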

Additional observations from a re-analysis of the deposited data

How the results depend on the processing

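No paired analysis was possible because there is 1 group and the lists pool both libraries, so no replicate could be left out either. The pseudoreplicated list gave 88 member regions, of which 73 were distal, a median of 9 regions per gene (all genes 1) and a median signal of 5.93. An IDR of 0.01 or below gave 23 regions and 15 distal ones. Counting each summit on its own gave 63 regions, 42 distal ones and a median of 6 (all genes 2). The number of member genes with a promoter region was 6 at an IDR of 0.01 (45.6% of all genes) and 9 in the pseudoreplicated list (55.7%). It was 9 with a window of 2500 bp (50.9% of all genes) and 7 with 1 TSS per gene (45.2%). With motif windows of 50 bp, the share of member regions was 5.71% for ETS (all regions 21.3%), 5.71% for TCF (6.81%), 2.86% for GATA (3.25%), 20% for E-box (22.8%), 0% for KLF/SP (21.9%) and 0% for CTCF (9.92%). The other 43 of 49 alternative motif shares stayed within the interval of the reported share, the longer CTCF core (11.4%) among them. That core and the pathway lists in the pseudoreplicated list (47 of 52 genes with a promoter region, against 38 thresholded) were alternatives chosen after seeing the data. Assignment within 20 kb left Tigit with 5 regions and Pdcd1 with 2, while 1 TSS per gene gave Cd160 2. Precision is limited by 1 biological replicate and 35 regions. Depth is unknown.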
